A study of Mus musculus with 2 samples.

Results

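The interleukin-6 family genes described here are 4 secreted ligands, Il6, Lif, Osm and Clcf1, and 4 receptor chains, Il6ra, Il6st, Osmr and Lifr. They were chosen by symbol, and all 8 were found among the 34745 Ensembl genes of the deposited files. Messenger RNA had been sequenced from peritoneal macrophages of C57BL/6 mice, 1 library labelled Kdm2b-/- and 1 labelled wild type. Both came from cells collected 4 days after thioglycollate, an irritant medium that recruits macrophages to the abdomen, and given lipopolysaccharide (LPS), a bacterial cell wall component, at 100 ng/ml. The LPS time is given as 4 h in one label and 3 h in another. The labels used here give neither the age and sex of the mice, nor how the Kdm2b allele was made, nor how many mice went into a library, and no untreated library was analysed, so all values are levels under LPS and not responses to it. The design asks how the macrophage transcriptome differs between the genotypes; with 1 library per group differences cannot be weighed against variation among mice, no p-value is given, and each statement is about these libraries.

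Cytokines of this family signal through a shared receptor chain, gp130, the product of Il6st. Interleukin-6 first binds its own receptor, encoded by Il6ra, and then gp130; leukemia inhibitory factor (Lif) pairs gp130 with the LIF receptor chain (Lifr), and oncostatin M (Osm) pairs it mainly with the oncostatin M receptor chain (Osmr) in mice. The joined chains activate JAK kinases and the transcription factor STAT3, and SOCS3 shuts gp130 signalling off. Macrophages exposed to LPS are a known source of interleukin-6 and oncostatin M, whereas fibroblasts and mesothelial cells are among the cells that carry Osmr and Lifr.

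The deposited FPKM values (fragments per kilobase of transcript, scaled to the mapped fragments of a library) imply depths of about 26800000 fragments for the library labelled knockout and 27300000 for wild type. Where a pair of FPKM values is given without further words, the first is that of the library labelled knockout and the other that of wild type, and log2 ratios are the former over the latter. Kdm2b, the target of the deletion by its label, had 0.326 and 0.205 FPKM (about 45 and 29 fragments), so it was not lower where the label says knockout; the 95% counting interval of the log2 ratio ran from -0.05 to 1.38. Kdm2b overlaps 4 other annotated genes, 2 of them on its own strand, and no strand marking is described, so its value is uncertain. A gene-level value cannot show a deleted exon, and directions below are those of the library labelled knockout. Markers of the labelled cell type were abundant: of the macrophage list, 11 of 12 reached a mean of 1 FPKM. All 11 were within 1.5-fold, with 6 above 0 and 5 below. The 12 summed to 14374 and 12108 FPKM, most of it Lyz2 (11409 and 8945 FPKM). Of 9039 genes whose mean reached 1 FPKM, 170 (1.88%) were at least 2-fold apart on the FPKM + 1 scale, 78 higher and 92 lower in the library labelled knockout; scaling that library so that the median log2 ratio went from 0.10 to 0 gave 44 higher and 113 lower. The log2 ratio also went with transcript length, from a median of -0.24 in the shortest 10% of genes to 0.29 in the longest 10%, so the median of genes of like length (1 of 20 length bins) is given beside the members.

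The ligands lay on both sides of the wild-type level. In the library labelled knockout Il6 and Osm stood at less than 50% of their wild-type FPKM, Lif was 1.72-fold higher and Clcf1 1.26-fold higher. The 4 receptor chains were 1.13-fold to 1.57-fold higher; for Il6ra, Osmr and Lifr the counting interval of the ratio included the median of genes of like length, and for Il6st it did not. Of the 8 members, 6 reached a mean of 1 FPKM, each of them in both libraries taken singly, and 2 did not, Il6ra and Lifr. Of those 6, 1 (Il6) was lower by 2-fold or more on FPKM + 1, where 1.02% of all genes were, and 0 were 2-fold higher, where 0.863% of all genes were. Il6 lost its 2-fold call with a pseudocount of 5, with equal totals and with trends in length or GC removed. At 1.5-fold, 2 were lower (Il6 and Osm; 2.8% of all genes) and 1 was higher (Lif; 4.7% of all genes), a call that Lif lost in 6 of 8 other settings. The median log2 ratio of the 6 was 0.29, against 0.10 over all genes and 0.13 for the median of their like-length values. The 2 middle values, those of Clcf1 (0.26) and Osmr (0.31), set the median of the 6.

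**Figure D1:**
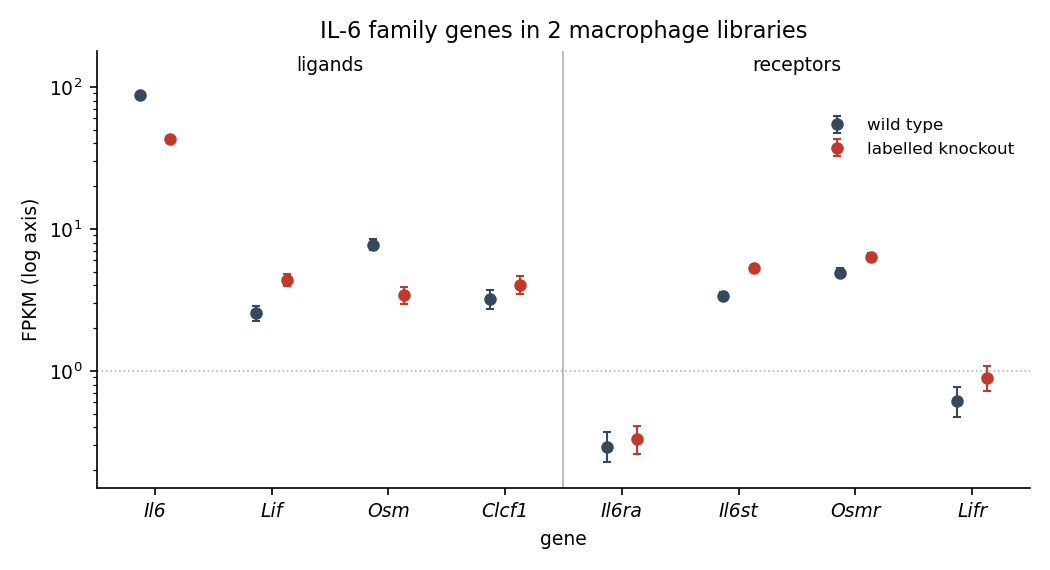
FPKM (log axis) of the 4 ligand and 4 receptor genes in the wild-type library (dark) and the library labelled knockout (red), 1 library each; bars are exact 95% counting intervals and the dotted line is 1 FPKM. Il6 went from 88.1 to 43.1 FPKM and Osm from 7.76 to 3.44 FPKM, while Lif, at 2.55 and 4.38 FPKM, lay the other way.

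Il6, which encodes the acute-phase cytokine that gives the family its name, reached 88.1 FPKM in the wild-type library, against 43.1 FPKM where the label says knockout. It was the most abundant member in both, and its counting intervals (40.8 to 45.5 and 84.8 to 91.4 FPKM) were far apart. The wild-type level was 2.04-fold that of the library labelled knockout. The log2 ratio was -1.01 on the FPKM + 1 scale and -1.03 on FPKM alone, and the counting interval, based on about 1318 and 2740 fragments, was -1.13 to -0.94. That placed Il6 as the 91st lowest of 9039 log2 ratios. The gene lies on chromosome 5 (30013114 to 30019981, plus strand, GRCm38), and its best-supported coding transcript has 5 exons and 1141 bases. Genes of like length (451 genes of 1067 to 1306 bases) had a median log2 ratio of -0.14, and 1.55% of them were lower than Il6. With the trend in length removed Il6 stood at -0.77, so it no longer passed 2-fold. With length and GC trends removed it stood at -0.68. With the longest transcript taken as the length (2343 bases for Il6), removing the length trend left it at -0.95, also short of 2-fold. Il6 also fell short of 2-fold with a pseudocount of 5 (-0.95) and with equal totals (-0.92). It passed with a pseudocount of 0.1 (-1.03), with the median scaled to 0 (-1.14) and with equal upper quartiles (-1.15). The size of the change thus depends on the transcript assumed, the pseudocount and the scaling.

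The promoters of Il6 and Lif are shown because these ligands lay on opposite sides of their wild-type level. Each is the stretch of 250 bases before the annotated start on the gene's strand (RefSeq, GRCm38.p6), 5′ to 3′, chr5:30012864-30013113 for Il6 and chr11:4257318-4257567 for Lif, both on the plus strand. Capitals mark matches, on either strand, to the kappaB consensus bound by NF-kappaB, TTNNGNAAT for C/EBP factors, TGANTCA for AP-1, TGACGT for CREB and related factors, and TTCNNNGAA for STAT factors.
Il6: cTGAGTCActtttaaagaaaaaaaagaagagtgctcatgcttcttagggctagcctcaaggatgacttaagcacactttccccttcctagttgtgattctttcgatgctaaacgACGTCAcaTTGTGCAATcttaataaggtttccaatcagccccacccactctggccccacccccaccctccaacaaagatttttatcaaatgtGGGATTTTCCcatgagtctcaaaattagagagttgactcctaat
Lif: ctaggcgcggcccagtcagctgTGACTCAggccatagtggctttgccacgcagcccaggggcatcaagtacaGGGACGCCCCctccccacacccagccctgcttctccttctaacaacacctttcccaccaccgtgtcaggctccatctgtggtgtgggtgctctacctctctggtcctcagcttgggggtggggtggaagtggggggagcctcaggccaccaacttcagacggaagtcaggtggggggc
The Il6 promoter held GGGATTTTCC as its kappaB match (44 to 35 bases before the start), TTGTGCAAT for C/EBP (128 to 120), ACGTCA, the reverse complement of TGACGT (136 to 131), and TGAGTCA for AP-1 (249 to 243), none of them overlapping. The Lif promoter held GGGACGCCCC as its kappaB match (178 to 169) and TGACTCA for AP-1 (228 to 222). Among 32851 promoter entries of this length, 7.25% held a kappaB match, 10.2% the C/EBP letters, 6.75% the AP-1 letters, 6.47% TGACGT and 7.02% the STAT letters. Matches to the kappaB consensus and to the AP-1 letters were thus present in both. RefSeq entries were matched for 6 of the 8 members; those of Il6ra, Il6st, Osmr and Lifr held 0 matches to any of the 5 motifs, and Osm and Clcf1 were not matched. A match is a description of letters and does not show that a factor was bound.

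Osm encodes oncostatin M, a cytokine released by activated macrophages and neutrophils that acts on stromal cells. Osm reached 7.76 FPKM in the wild-type library, against 3.44 FPKM where the label says knockout, and the counting intervals (2.98 to 3.93 and 7.09 to 8.49 FPKM) did not overlap. On FPKM alone the wild-type level was 2.26-fold that of the library labelled knockout. The log2 ratio was -1.18 (counting interval -1.42 to -0.94, about 209 and 481 fragments), and that interval included the -1.03 of Il6. On the FPKM + 1 scale the log2 ratio was -0.98, the 94th lowest, just short of 2-fold. Osm passed 2-fold with a pseudocount of 0.1 (-1.15) and with the median scaled to 0 (-1.08) or equal upper quartiles (-1.09). It did not pass with a pseudocount of 5 (-0.60), with equal totals (-0.91) or with trends in length or GC removed (-0.92 to -0.998). Like-length genes had a median of 0.08, and 1.12% of 447 such genes were lower. Il6 and Osm thus kept nearly the same proportion to each other, with 12.5 times as much Il6 as Osm per length in the library labelled knockout and 11.3 times in the wild-type library.

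Lif encodes leukemia inhibitory factor, which keeps mouse embryonic stem cells undifferentiated and is induced in many cell types by inflammation. Lif had 4.38 FPKM where the label says knockout and 2.55 FPKM in wild type, with counting intervals of 3.98 to 4.81 and 2.25 to 2.88 FPKM that did not overlap. The log2 ratio was 0.60 on the FPKM + 1 scale, the 384th highest, and 0.78 on FPKM alone (counting interval 0.56 to 1.01, about 446 and 264 fragments). Lif kept the 1.5-fold mark with a pseudocount of 0.1 (0.76) and with equal totals (0.68). It was under that mark in the other 6 of 8 settings, at 0.31 with a pseudocount of 5, 0.50 with the median scaled to 0, 0.49 with equal upper quartiles and 0.50 to 0.56 with trends removed. Like-length genes had a median of 0.19, and 3.77% of 451 such genes were higher. Clcf1, which encodes cardiotrophin-like cytokine factor, a ligand of the ciliary neurotrophic factor receptor complex, stood at 4.03 and 3.19 FPKM. Its counting intervals overlapped (3.499 to 4.64 and 2.72 to 3.73 FPKM), and that of the log2 ratio on FPKM alone ran from 0.03 to 0.65. On the FPKM + 1 scale the log2 ratio was 0.26. Like-length genes had a median of 0.00823 there, and 18.8% of 451 such genes were higher. Clcf1 (chromosome 19, 4214238 to 4223490, plus strand) overlaps 1 other annotated gene on its own strand and 1 on the other, and no strand marking is described for these libraries, so its value is less certain than those of Il6, Osm and Lif, which overlap none.

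Lif and Osm are neighbours, and the order of their levels was turned round between the libraries. Osm (chromosome 11, 4236420 to 4241026) and Lif (chromosome 11, 4257557 to 4272514) lie on the plus strand of GRCm38 with 16.5 kb between them. In the wild-type library Osm was 3.04 times as abundant as Lif per length; in the library labelled knockout it was 0.784 times as abundant, where the intervals of Lif and Osm did not overlap either. Of the other annotated genes within 250 kb of either, 4 reached a mean of 1 FPKM. These were Rnf215 (2.30 and 1.76 FPKM), the splicing factor gene Sf3a1 (4.66 and 3.54 FPKM), Tbc1d10a (3.07 and 2.32 FPKM) and the phosphatase gene Mtmr3 (1.97 and 1.69 FPKM). Their log2 ratios on the FPKM + 1 scale lay between 0.14 and 0.32, so both Osm, below, and Lif, above, lay outside the range of the genes around them.

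**Figure D2:**
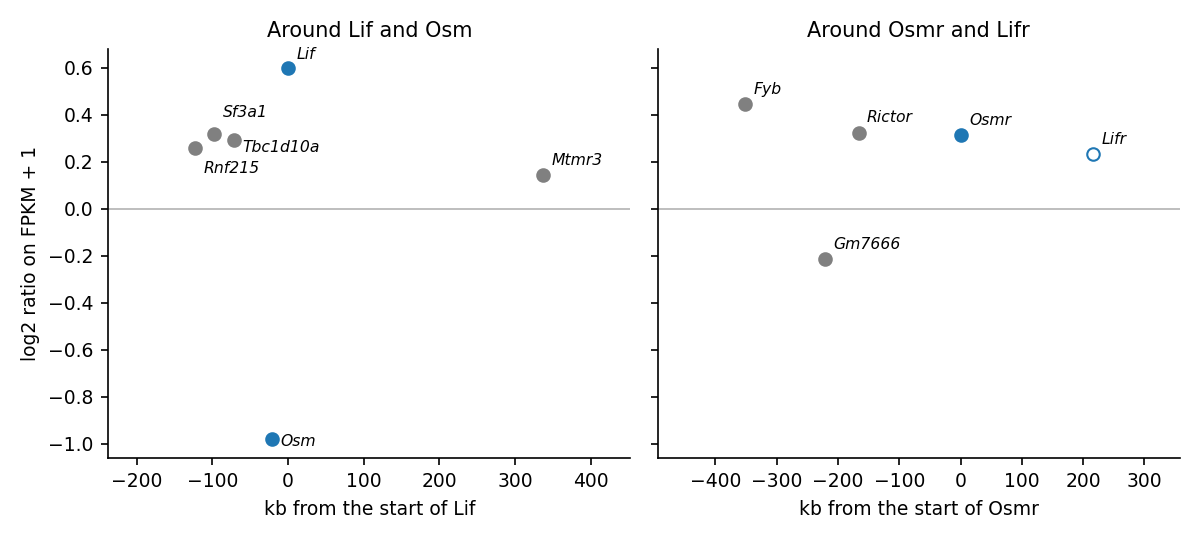
Log2 ratio on FPKM + 1 (library labelled knockout over wild type) against the distance in kb of each gene's start from that of Lif (left) or Osmr (right), for members (blue, open where under 1 FPKM) and for other genes whose mean reached 1 FPKM (grey). Osm, at -0.98, and Lif, at 0.60, lie outside the 0.14 to 0.32 of the 4 genes around them. Osmr, at 0.31, and Lifr, at 0.23, lie below Rictor and Fyb and above the pseudogene Gm7666. The place of Lifr depends on the scale, its log2 ratio being 0.55 on FPKM alone.

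As a group the ligands were dominated by Il6. It made up 78.4% of the summed FPKM of the 4 in the library labelled knockout and 86.7% in the wild-type library, of sums of 55.0 and 102 FPKM. Without Il6 the other ligands summed to 11.9 and 13.5 FPKM, the higher Lif and Clcf1 making up only part of the lower Osm. The level of Il6 was 9.83 times that of Lif in the library labelled knockout and 34.5 times in the wild-type library.

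Il6st, the shared gp130 chain, was higher where the label says knockout, at 5.31 FPKM against 3.37 FPKM. Its counting intervals (5.01 to 5.61 and 3.14 to 3.61 FPKM) did not overlap, and the log2 ratio was 0.53 on the FPKM + 1 scale, the 592nd highest, and 0.66 on FPKM alone (counting interval 0.53 to 0.79). Il6st lies on chromosome 13 (112464070 to 112510086, plus strand) and has a long transcript of 8678 bases, and the 468 longest genes had a median of 0.29, with 12.8% of them higher than Il6st. With the length trend removed it stood at 0.34. Osmr, the chain that binds oncostatin M with gp130, stood at 6.37 and 4.93 FPKM, a log2 ratio of 0.31 (0.37 on FPKM alone, counting interval 0.23 to 0.51). Its intervals did not overlap, but like-length genes had a median of 0.24, and 37.8% of them were higher.

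Lifr and Il6ra were the least abundant members and stayed under a mean of 1 FPKM. Lifr had 0.893 and 0.611 FPKM, about 99 and 69 fragments. The counting intervals of its levels overlapped, and that of its log2 ratio on FPKM alone (0.55) ran from 0.09 to 1.01. The log2 ratio of Lifr was 0.23 on the FPKM + 1 scale, where like-length genes had a median of 0.20. Il6ra, the chain that gives a cell its own response to interleukin-6, stood at 0.330 and 0.291 FPKM, about 76 and 69 fragments. The counting interval of its log2 ratio on FPKM alone ran from -0.33 to 0.66, so no difference was detectable at this depth, and its sign on the FPKM + 1 scale (0.04) turned in 3 of 8 other settings. Like-length genes had a median of 0.40 on FPKM alone, inside that interval. On the FPKM + 1 scale their median was 0.29, and 89.7% of 468 such genes were higher, but these reached a mean of 1 FPKM and Il6ra did not. Il6ra (chromosome 3, 89864059 to 89913196, minus strand) also overlaps an annotated gene on the other strand. Per length, Il6st was 16.1 times as abundant as Il6ra in the library labelled knockout and 11.6 times in the wild-type library. Osmr was 7.13 and 8.07 times as abundant as Lifr. The 4 chains summed to 12.9 and 9.20 FPKM.

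Osmr (chromosome 15, 6813577 to 6874969, minus strand) and Lifr (chromosome 15, 7090614 to 7197489, plus strand) are also neighbours, with 216 kb between them. The other genes within 250 kb that reached a mean of 1 FPKM were Fyb, an adaptor gene of leukocytes (8.03 and 5.63 FPKM, log2 ratio 0.45), Rictor, a subunit of mTOR complex 2 (4.60 and 3.47 FPKM, 0.32), and the processed pseudogene Gm7666 (81.8 and 95.1 FPKM, -0.21). On the FPKM + 1 scale Osmr (0.31) and Lifr (0.23) lay below the protein-coding neighbours Rictor and Fyb and above the pseudogene. Lifr was under 1 FPKM, where adding 1 shrinks a ratio most. On FPKM alone its log2 ratio was 0.55 (counting interval 0.09 to 1.01), so its place among these neighbours depends on the scale.

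**Figure D3:**
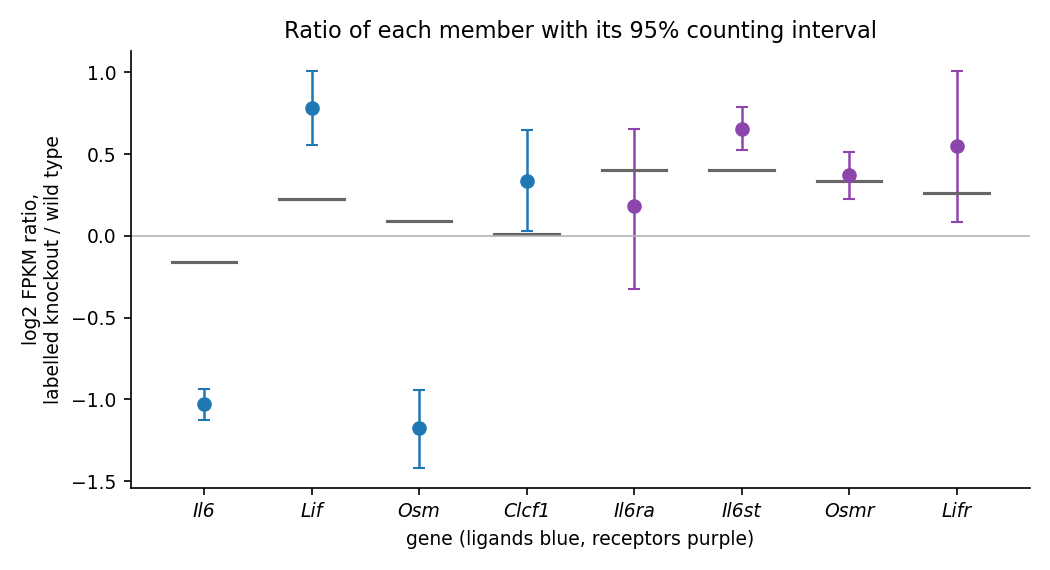
Log2 ratio of FPKM (library labelled knockout over wild type, no pseudocount) for each ligand (blue) and receptor (purple), with exact 95% counting intervals; grey bars are the median log2 FPKM ratio of genes of like length. Il6 (-1.03) and Osm (-1.18) lie below and Lif (0.78) above their grey bars, and the intervals of Il6ra, Osmr and Lifr reach theirs.

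The levels of the members within a library gave 2 orders. In the wild-type library the order from high to low was Il6, Osm, Osmr, Il6st, Clcf1, Lif, Lifr and Il6ra, and the neighbours whose counting intervals overlapped were Il6st with Clcf1 and Clcf1 with Lif. In the library labelled knockout the order was Il6, Osmr, Il6st, Lif, Clcf1, Osm, Lifr and Il6ra, with overlaps between Lif and Clcf1 and between Clcf1 and Osm. Osm thus went from the second place to the sixth, and Lif from the sixth to the fourth, while Il6, Clcf1, Lifr and Il6ra held theirs.

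**Figure D4:**
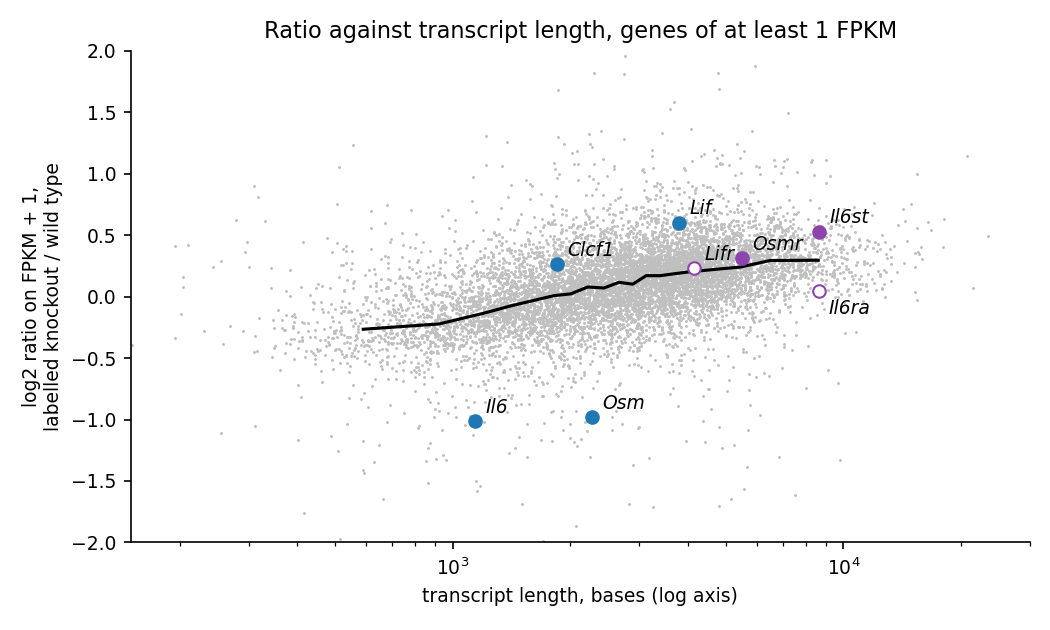
Log2 ratio on FPKM + 1 against transcript length (log axis) for genes whose mean reached 1 FPKM (grey; 26 genes lie outside the axes), the median in 20 length bins (black line) and the members (ligands blue, receptors purple, open where under 1 FPKM). Osmr and Lifr lie near the line, Il6 and Osm far below it and Lif above it.

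RNA from several cell types can carry these genes, and in bulk RNA fewer cells of a type and less RNA per cell cannot be told apart. Most fibroblast and stromal markers were higher in the library labelled knockout, the direction of Lif, Il6st, Osmr and Lifr, but not the most abundant one. Of 12 listed, 10 reached a mean of 1 FPKM, 9 were above 0 and 5 at least 2-fold higher, among them the collagen genes Col1a1 (16.0 and 3.63 FPKM), Col1a2 (24.2 and 9.67 FPKM) and Col3a1 (22.9 and 9.54 FPKM). The 12 summed to 545 and 391 FPKM, and Pdgfra, a growth factor receptor of fibroblasts, stood at 12.1 and 7.81 FPKM. Dcn, the most abundant of the list, was nearly level at 251 and 248 FPKM (log2 ratio 0.02), Thy1 had 2.69 and 2.43 FPKM (0.10), and Lum lay the other way at 9.46 and 12.4 FPKM (-0.35). Mesothelial markers summed to 118 FPKM in each library, with 0 of 9 at 1.5-fold (7.5% of all genes). The sum of the 8 B cell markers was lower in the library labelled knockout, in the direction of Il6 and Osm, at 8.44 and 32.6 FPKM. Most of that came from the antibody genes Igkc (1.47 and 18.9 FPKM) and Ighm (0.992 and 6.92 FPKM). These were 2 of the 3 past 1 FPKM and both at least 2-fold lower. Cd22, the other of the 3, was nearly level at 5.57 and 5.32 FPKM (0.06). Those under 1 FPKM, among them Cd79a (0.205 and 1.01 FPKM, about 8 and 40 fragments), were lower. For Cd79b, Ms4a1 and Pax5, however, the counting interval of the ratio on FPKM alone included 0. Of 8 T and NK cell markers 5, among them Cd3e, were listed at 0 in both libraries, and the 8 summed to 2.76 and 6.55 FPKM, nearly all of it Lck. The neutrophil markers Ly6g and Mpo were at 0 in both; that list summed to 21.7 and 20.3 FPKM. Dendritic cell markers summed to 86.8 and 93.5 FPKM, nearly all of it Itgax, which macrophages also express, and Xcr1, Clec9a and Siglech were at 0. The part of these cell types in the member values was not tested.

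The rest of the family was led by interleukin-27. Il27, which encodes a subunit of this cytokine, stood at 530 and 566 FPKM, above Il6 in both libraries, with a log2 ratio of -0.09. Ebi3, the other subunit, stood at 14.7 and 13.01 FPKM. The receptor genes Il11ra1 (15.8 and 16.7 FPKM) and Il27ra (1.02 and 1.23 FPKM) were within 1.5-fold. The other listed genes were under a mean of 1 FPKM. Ctf1, cardiotrophin-1, stood at 0.282 and 0.422 FPKM. Il11 stood at 0.0593 and 0.0146 FPKM, Cntfr, a receptor chain for Clcf1, at 0.0567 and 0.0223 FPKM and Il31ra at 0.0305 and 0.10 FPKM, each on 10 or fewer fragments in either library. Ctf2 and Il31 were listed at 0 in both. Cntf, ciliary neurotrophic factor, stood at 0.382 and 0.0342 FPKM, about 11 fragments and 1, a log2 ratio on FPKM alone of 3.48 with a counting interval of 0.70 to 8.91; it overlaps Zfp91 on the same strand.

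Downstream of the receptors, the signal transduction genes lay close together. Of 19 listed genes of the JAK-STAT and SHP2 branches, 18 reached a mean of 1 FPKM and 0 were 1.5-fold apart, where 7.5% of all genes were. Their median log2 ratio was 0.20, that of their like-length values 0.22, and 15 of 18 were above 0, as were 5716 of all 9039 genes, the background for each count above 0 given here. Gab1, a docking protein of the SHP2 branch (3.77 and 2.44 FPKM, log2 ratio 0.47), the adaptor gene Shc1 (5.79 and 4.18 FPKM, 0.39), Ptpn11, which encodes SHP2 (7.65 and 5.73 FPKM, 0.36), and the kinase gene Tyk2 (7.45 and 5.61 FPKM, 0.35) had the largest ratios. Stat3 itself stood at 10.1 and 9.02 FPKM. All 3 measured genes of receptor shedding were above 0, at 0.12 to 0.35, where their like-length median was 0.21; Adam17, the protease that sheds the interleukin-6 receptor, stood at 22.7 and 17.8 FPKM and its partner Rhbdf2 at 20.9 and 16.2 FPKM.

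Inhibitors of the pathway were as many above 0 as below. Of 9 listed, 8 were measured, 4 on each side and 0 at 1.5-fold (7.5% of all genes), with a median of 0.01. The 4 below 0 were Cish (4.82 and 6.73 FPKM, log2 ratio -0.41), Socs3 (212 and 256 FPKM, -0.28), Socs1 (19.9 and 24.2 FPKM, -0.27) and Socs2 (1.01 and 1.12 FPKM, -0.08), all feedback inhibitors. The counting interval of the Socs2 ratio on FPKM alone, -0.68 to 0.37, included 0. Pias1, a SUMO ligase that restrains STAT proteins, stood at 13.04 and 10.5 FPKM (0.29). STAT3 target genes lay on both sides as well. Of 26 listed, 25 were measured, 14 above 0 and 11 below, with a median of 0.03. The 1 at 1.5-fold was Myc (1.64 and 0.687 FPKM, 0.65), a mark that 4.7% of all genes passed upward. Bcl2l1, a survival gene, had the lowest ratio (0.943 and 1.89 FPKM, -0.57). Bcl3 stood at 15.6 and 11.01 FPKM (0.47), and Il6st, itself a listed target, is described above. Socs3 is in both lists, and the member Osmr is a listed STAT3 target too. The STAT3 targets also share several genes with the regulators of Il6 transcription below, among them Bcl3, Cebpb and Nfkbiz, so these lists are not separate.

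Genes that act on Il6 itself were listed by level of control. Of 17 genes that regulate its transcription, 16 were measured and 0 were 1.5-fold apart, where 7.5% of all genes were. Of the 16, 11 lay above 0 and 5 below, with a median of 0.11. Those below 0 were Atf3, a repressor of LPS-induced cytokine genes (101 and 152 FPKM, log2 ratio -0.58), Jun, Cebpb, Hdac2 and Nfkbiz. The counting intervals of Hdac2 (-0.20 to 0.12) and Nfkbiz (-0.06 to 0.04) on FPKM alone included 0. Smarca4, the ATPase of the SWI/SNF remodelling complex (8.92 and 5.75 FPKM, 0.56), and Nfkb1 (26.6 and 18.1 FPKM, 0.53) were the highest. Of the 11 genes that govern decay of its mRNA, 10 were measured and 9 were above 0 (5716 of 9039 over all genes). Their median was 0.41, against 0.22 for the median of their like-length values and 0.10 over all genes. The list does not separate genes that promote decay from genes that slow it, so the count and the median give no direction of decay. Zfp36l2, which encodes a protein that binds AU-rich elements and promotes decay, was 1.80-fold higher on FPKM (17.3 and 9.62 FPKM, 0.79). It was the 1 of the 10 past the 1.5-fold mark, which 4.7% of all genes passed upward and 2.8% downward. Dicer1 (3.45 and 2.14 FPKM, 0.50), Khsrp (8.61 and 5.99 FPKM, 0.46) and Zfp36l1 (6.11 and 4.21 FPKM, 0.45) followed. Zfp36, which encodes tristetraprolin, was the 1 below 0 (99.7 and 110 FPKM, -0.14).

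**Figure D5:**
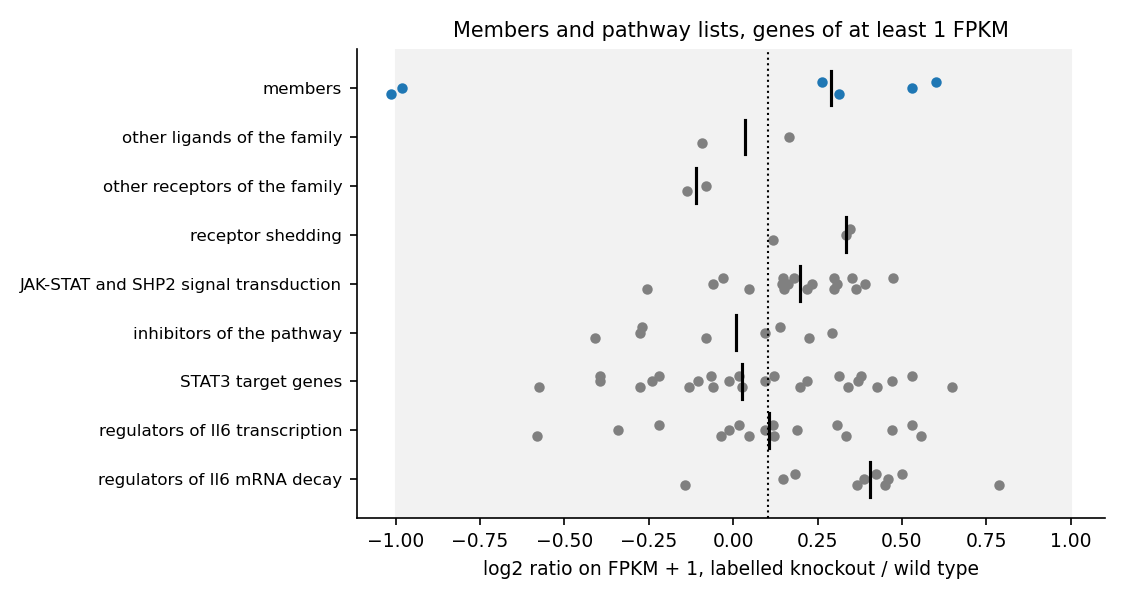
Log2 ratio on FPKM + 1 (library labelled knockout over wild type) of each measured gene in the family and pathway lists; black bars are list medians, the dotted line is the median of all genes (0.10) and the shaded band is less than 2-fold. Il6 is the 1 gene outside the band, Osm lies just inside it, and the mRNA decay list has a median of 0.41.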

How the data were processed

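The authors deposited 1 FPKM value for each Ensembl gene of a library, per the file headers. Tools listed in the submitters' processing notes are StringTie 1.3.0, HISAT2 2.0.4 and edgeR, and builds are GRCm38.p4 and mm10; what each was used for, annotation and filters were not given in the sources used here. Since FPKM is a value per length and per mapped fragment, a few abundant genes or RNA fragmentation can move all values.

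Symbols (34267 of 34745 IDs), positions and lengths came from GENCODE M21 (GRCm38). FPKM was summed for 17 symbols with several IDs. The length of a gene was that of its longest protein-coding transcript of support level 1, or else its longest transcript. For single-transcript genes under 20 fragments, FPKM times length lay within 0.02 of a whole multiple of 1 step in 92.6% of 1522 genes (labelled knockout) and 92.3% of 1460 (wild type), which gave depths and fragment numbers. Fragment numbers of genes with several transcripts scale with the length assumed. Exact 95% intervals (Clopper-Pearson for ratios, Poisson for levels) cover counting error only.

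Log2 ratios used FPKM + 1, which understates low genes. A gene was measured at a mean of 1 FPKM and counted at 2-fold. Named genes were the members, Kdm2b, all other ligands and receptors of the family, the neighbours by position that reached 1 FPKM, and in each other list up to 4 genes with the largest ratios; members of counts of 5 or fewer, Stat3, Pdgfra and single markers were named after their values were seen. The members and lists were chosen with earlier results of these data known. A search for genes of like pattern was not made, since 2 libraries give 1 ratio per gene. Alternatives were other pseudocounts, scalings, floors and folds, and removal of trends in length and GC. Some genes of the lists are not reported here by name. The calculations were tested on simulated data. Python 3.11.15, numpy 2.4.6, pandas 2.3.3 and scipy 1.17.1 were used.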

Additional observations from a re-analysis of the deposited data

How the results depend on the processing

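The log2 ratios of Il6, Osm, Lif, Clcf1, Il6st, Osmr and Lifr kept their sign in all 8 settings tried, and that of Il6ra in 5 of 8. Of 180 values under other settings, 133 stayed close to the reported ones (counts within 1.5 times, ratios within counting error) and 47 moved; the causes were not tested. With a pseudocount of 0.1, 311 genes and 2 members were at least 2-fold apart, the members both lower. With a pseudocount of 5 there were 47 genes and 0 members, and Lif stood at 0.31, Osm at -0.60, Il6st at 0.30 and the mRNA decay list at 0.23. With the median scaled to 0, 2 members were lower and Il6 stood at -1.14; list medians were -0.0880 (other ligands), 0.0835 (signal transduction), 0.21 (shedding) and -0.00717 (transcription). With equal upper quartiles, 2 members were lower and Il6 stood at -1.15; the medians were -0.10, 0.0709, 0.20 and -0.0209, and -0.10 for the inhibitors. With equal totals, 0 members passed 2-fold and the transcription list stood at 0.18. With the length trend removed, 0 members passed, Il6 stood at -0.77 and Il6st at 0.34, other ligands at 0.32 and shedding at 0.23. With length and GC trends removed, a choice made after the data were seen, 0 members passed; Il6 stood at -0.68, Il6st at 0.36, other ligands at 0.23, shedding at 0.15, transcription at 0.0253 and mRNA decay at 0.27. With the longest transcript as the length, also chosen afterwards, 0 members passed and Il6 stood at -0.95. Il6st stood at 0.35 there, Osmr at 0.16, other ligands at 0.34 and STAT3 targets at 0.14. A floor of 5 FPKM left 83 genes 2-fold apart, and no floor put shedding at 0.23. At 1.5-fold there were 678 genes, with 1 member higher and 2 lower, and at 4-fold 23 genes and 0 members. No paired analysis was possible because each group holds 1 library, and for the same reason no library could be left out. Depth limited Il6ra, whose ratio on FPKM alone had a counting interval of -0.33 to 0.66.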
